A study of Mus musculus with 12 samples.

Results

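The genes examined here are 10 genes of intestinal lipid absorption and lipoprotein secretion: Fabp1, Fabp2, Apoa1, Apoa4, Apob, Apoc3, Mttp, Dgat1, Dgat2 and Scarb1. They were taken by gene symbol from 14082 symbols that could be compared across the 12 deposited tables, and all 10 were measured. Where a symbol had several loci, their FPKM, fragment counts scaled to transcript length and library size, were summed. All 10 also passed the filter on low values, which kept 12962 genes with at least 1 FPKM in at least 4 libraries.

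The RNA came from Lgr5-GFP+ cells, the marker-defined stem cells at the base of intestinal crypts, sorted from C57BL/6 mice. Every mouse, the wild type included, carried Lgr5-CreERT2-ires-eGFP, in which the Lgr5 promoter drives both a tamoxifen-inducible Cre recombinase and the fluorescent marker, and every mouse received tamoxifen as 1 injection followed by 5 days of diet. The mice were ApcFlox/Flox (Apc_KO), ApcFlox/+ (Apc_HET) or Apc+/+ (Apc_WT), with 4 libraries for each genotype, and cells were collected on day 15. Apc is a scaffold of the complex that sends beta-catenin for destruction, and the comparison asks what its loss does to the expression program of these cells. The labels give no age, sex, batch or intestinal segment.

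In the small intestine, fatty acids and monoglycerides enter the enterocyte, are carried by cytosolic binding proteins and are rebuilt into triglyceride in the endoplasmic reticulum. The microsomal transfer protein then loads the triglyceride onto apolipoprotein B, and the particle leaves as a chylomicron that carries further apolipoproteins on its surface. The pathway is known as a property of mature villus enterocytes, and stem cells are not its usual site.

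Read counts were not used here. Total FPKM per library was 391710 to 518428, and relative depth, read from the steps between low values, was 0.37 to 0.882 of that of Apc_WT replicate 1. In Apc_KO this estimate rests on only 14 to 32 genes per library and is uncertain. Log2 values of libraries of 1 genotype correlated across genes at 0.913 to 0.981. Lgr5 was at 27.0 to 65.4 FPKM in Apc_KO, 21.3 to 31.6 FPKM in Apc_HET and 20.2 to 30.01 FPKM in Apc_WT libraries, so the sort marker was present in every library. The Apc row gave 9.94 to 17.3 FPKM in Apc_KO, 9.81 to 12.5 FPKM in Apc_HET and 6.91 to 10.5 FPKM in Apc_WT libraries. It covers the whole gene and does not measure the floxed part, so it checks no genotype label. Apc_WT replicate 4 stood apart: it was the highest Apc_WT library for 10 of the 10 genes.

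In Apc_KO against Apc_WT, 8 of the 10 genes fell and 2 rose. The fatty acid binding proteins, the transfer protein Mttp, the apolipoproteins and Dgat1 were lower, and Dgat2 and the lipoprotein receptor Scarb1 were higher. Over all genes tested, 45.5% were called in this comparison, 17.7% lower and 27.9% higher, at a Benjamini-Hochberg adjusted p under 0.05 from limma on log2(FPKM + 1). Mean Apc_KO levels ranged from 3.95% of the mean Apc_WT level for Apoc3 to 412% for Scarb1. The median log2 fold change was -2.56 over the 10 genes and 0.12 over all genes. Another scaling moved that shift and the split of calls: the median of all genes was 0.01 with 2830 lower and 2851 higher calls under median-of-ratios size factors, and -0.02 with 3043 lower and 2764 higher calls under quantile normalization, against 2291 lower and 3613 higher calls as deposited. In 7 genes every Apc_KO library lay below every Apc_WT library and in 1 gene above, where 40.4% of all genes were separated, 16% below and 24.3% above. The cells were measured in bulk, so fewer cells with these transcripts and less transcript per cell cannot be told apart.

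**Figure D1:**
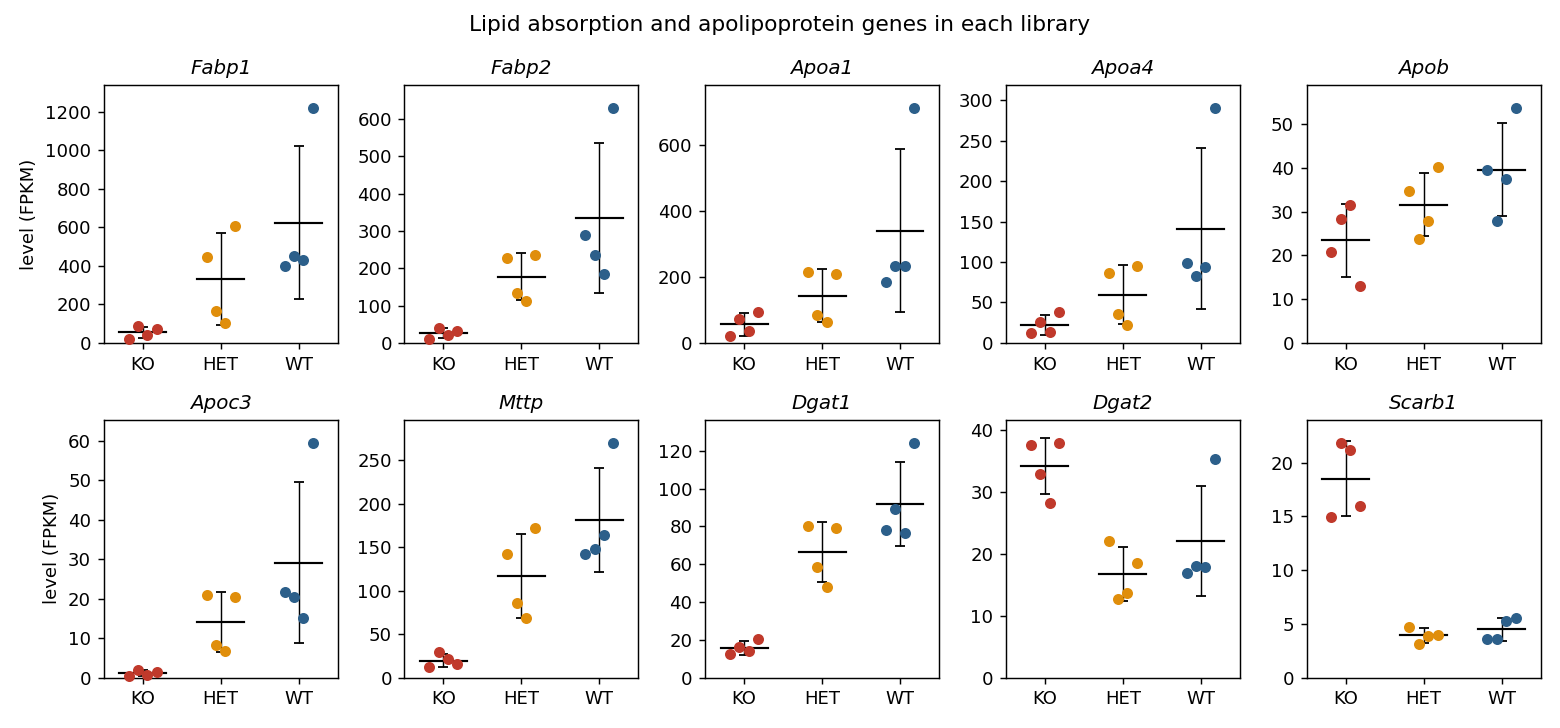
Level of each gene in FPKM (vertical axes, from 0) in the 4 libraries of Apc_KO, Apc_HET and Apc_WT. Points are libraries, horizontal lines are means and vertical bars are 1 SD. The Apc_KO points of Fabp1 (20.3 to 85.7 FPKM) lie below all Apc_WT points (401 to 1218 FPKM), while those of Scarb1 (15.0 to 21.8 FPKM) lie above them (3.57 to 5.52 FPKM).

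The cytosolic fatty acid binding proteins carry absorbed fatty acids through the enterocyte. Fabp1 (chr6:71199827-71205023, plus strand, GRCm38), the form shared with liver, was at 20.3, 85.7, 41.2 and 72.4 FPKM in Apc_KO replicates 1 to 4. It was at 448, 164, 104 and 607 FPKM in Apc_HET and at 401, 451, 429 and 1218 FPKM in Apc_WT. No Apc_KO library reached the lowest library of another genotype, whereas Apc_HET overlapped Apc_WT. The fold change of Apc_KO against Apc_WT was -3.51 on the log2 scale (SE 0.60, limma adjusted p = 0.000491). Fabp2 (chr3:122895072-122899506, plus strand), the intestinal form, was at 9.30, 41.1, 20.7 and 31.0 FPKM in Apc_KO, 229, 133, 113 and 237 FPKM in Apc_HET, and 289, 234, 186 and 628 FPKM in Apc_WT. It showed the same separation, with a log2 fold change of -3.68 (SE 0.46, limma adjusted p = 4.12e-05).

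The enzymes Dgat1 and Dgat2 catalyse the same last step of triglyceride synthesis and belong to unrelated families. They moved in opposite directions. Dgat1 (chr15:76502015-76511953, minus strand) was at 12.3, 16.0, 14.3 and 20.6 FPKM in Apc_KO, 80.2, 58.8, 47.9 and 79.2 FPKM in Apc_HET, and 77.9, 89.1, 76.7 and 124 FPKM in Apc_WT. All Apc_KO libraries lay under both other genotypes, with a log2 fold change against Apc_WT of -2.46 (SE 0.21, limma adjusted p = 1.81e-06). The deposited locus of Dgat1 is also that of Hsf1, which has its own row and was at 22.9 to 29.5 FPKM in Apc_KO and 22.8 to 27.5 FPKM in Apc_WT.

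Dgat2 (chr7:99153658-99182719, minus strand) was at 37.6, 33.0, 28.2 and 37.9 FPKM in Apc_KO, 22.0, 12.8, 13.7 and 18.5 FPKM in Apc_HET, and 16.9, 18.1, 18.0 and 35.3 FPKM in Apc_WT. The Apc_KO libraries exceeded all Apc_HET libraries and every Apc_WT library but replicate 4, which fell inside their range. The log2 fold change against Apc_WT was 0.67 (SE 0.23, limma adjusted p = 0.0333). This call ended with median-of-ratios size factors (0.54, adjusted p = 0.0784) and with library weights (0.62, adjusted p = 0.0859). Leaving out any 1 of Apc_WT replicates 1, 2 and 3 and Apc_KO replicates 1, 2 and 4 ended it too, with adjusted p from 0.0571 to 0.0944. Without Apc_WT replicate 4 it held at 0.91 (adjusted p = 0.00186).

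Mttp and Apob act in the assembly of the particle. Mttp (chr3:138089854-138144968, minus strand), the lipid transfer protein, was at 12.1, 29.0, 21.3 and 15.4 FPKM in Apc_KO, 142, 85.2, 68.9 and 172 FPKM in Apc_HET, and 142, 148, 164 and 269.5 FPKM in Apc_WT. The Apc_KO libraries were separate from both other genotypes, and the log2 fold change against Apc_WT was -3.17 (SE 0.33, limma adjusted p = 9.09e-06). Mttp was summed over 2 rows of a locus it shares with Trmt10a, whose own row was at 7.52 to 15.0 FPKM in Apc_KO and 6.23 to 8.66 FPKM in Apc_WT.

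Apob (chr12:7977648-8016835, plus strand) is the structural protein of chylomicrons, and of the 8 genes that fell against Apc_WT it had the smallest fold change. It was at 20.8, 28.4, 31.5 and 13.0 FPKM in Apc_KO, 34.8, 23.7, 27.9 and 40.1 FPKM in Apc_HET, and 39.5, 27.8, 37.5 and 53.6 FPKM in Apc_WT. Apc_KO replicates 2 and 3 overlapped the lowest Apc_WT library, and the log2 fold change was -0.77 (SE 0.27, limma adjusted p = 0.0350). Apob no longer passed when Apc_HET was left out of the fit (adjusted p = 0.0590) or when libraries were weighted (-0.39, adjusted p = 0.238). Leaving out any 1 of Apc_WT replicates 1, 3 and 4 and Apc_KO replicates 1 and 4 also ended the call. Without Apc_WT replicate 4 the fold change was -0.61 (adjusted p = 0.103), and without Apc_KO replicate 4 it was -0.52.

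Apoa1, Apoa4 and Apoc3 encode exchangeable apolipoproteins of the particle surface. Apoa1 is the main protein of high-density lipoprotein, Apoa4 is induced by fat absorption, and Apoc3 restrains triglyceride clearance from blood. Apoa1 (chr9:46228580-46230466, plus strand) was at 21.3, 73.5, 35.0 and 94.5 FPKM in Apc_KO, 215, 84.1, 63.4 and 208 FPKM in Apc_HET, and 185, 234, 232 and 710.4 FPKM in Apc_WT. Its Apc_KO libraries lay below all Apc_WT libraries and overlapped Apc_HET, with a log2 fold change against Apc_WT of -2.58 (SE 0.56, limma adjusted p = 0.00262). Apoa4 (chr9:46240696-46243459, plus strand) was at 11.9, 26.4, 13.6 and 37.8 FPKM in Apc_KO, 86.4, 36.3, 21.6 and 95.1 FPKM in Apc_HET, and 98.7, 82.7, 93.3 and 290.1 FPKM in Apc_WT. The overlaps were those of Apoa1, and the log2 fold change was -2.54 (SE 0.54, limma adjusted p = 0.00212). The antisense gene Gm10680 overlaps its end and has its own row, at 6.28 to 20.5 FPKM in Apc_KO and 47.7 to 153 FPKM in Apc_WT. Whether fragments were assigned by strand is not given in the sources used here, and with Gm10680 added to Apoa4, an alternative chosen after seeing the data, the fold change was -2.57.

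Apoc3 (chr9:46232933-46235636, minus strand) fell furthest as a share of its Apc_WT mean. It was at 0.406, 1.99, 0.675 and 1.53 FPKM in Apc_KO, 20.8, 8.19, 6.79 and 20.3 FPKM in Apc_HET, and 21.6, 20.3, 15.1 and 59.4 FPKM in Apc_WT. The Apc_KO libraries were far under both other genotypes, with a log2 fold change of -3.67 (SE 0.45, limma adjusted p = 3.43e-05). Since this scale adds 1 to each value, it understates the ratio of a gene that low: with 0.1 added instead, the fold change was -4.55.

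Scarb1 (chr5:125277087-125341094, minus strand) encodes the receptor SR-BI, which takes up cholesterol from high-density lipoprotein. It was at 15.0, 21.8, 21.2 and 16.0 FPKM in Apc_KO, 4.73, 3.12, 3.85 and 4.01 FPKM in Apc_HET, and 3.61, 3.57, 5.26 and 5.52 FPKM in Apc_WT. Every Apc_KO library was above every library of the other genotypes, which overlapped each other. The log2 fold change against Apc_WT was 1.83 (SE 0.17, limma adjusted p = 3.82e-06).

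**Figure D2:**
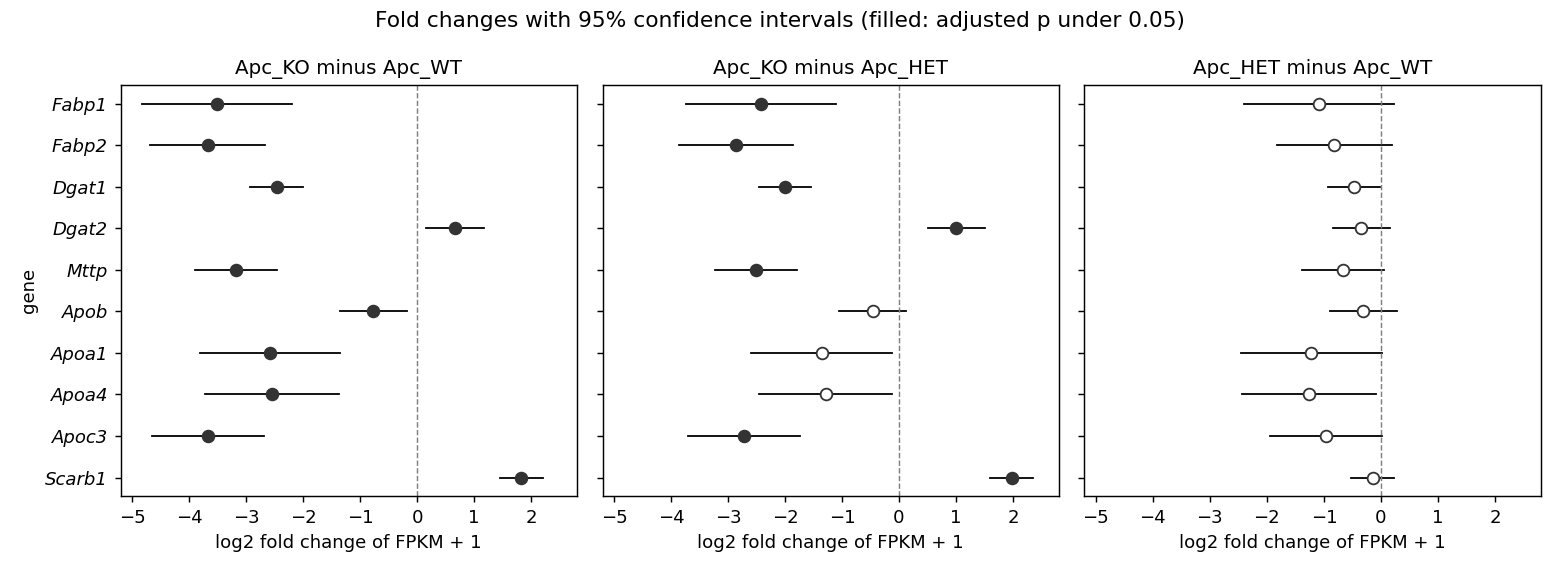
Log2 fold change of FPKM + 1 (horizontal axes) of the 10 genes in the 3 comparisons, with 95% confidence intervals; filled points passed an adjusted p under 0.05. Scarb1 and Dgat2 lie above 0 against both Apc_WT (1.83 and 0.67) and Apc_HET (1.98 and 1.01), and no point passed for Apc_HET minus Apc_WT.

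Promoter sequences from RefSeq on GRCm38.p6, windows of 300 bases that reach from upstream of a start site to just past it, were found for 6 of the 10 genes: Fabp1, Fabp2, Apoa1, Apoa4, Apob and Mttp. They were searched on both strands for AAAGTNCA, a core of HNF4 sites, GTTAAT for HNF1, AGATAA for GATA factors, TTTATGG for CDX, CTTTGAT for TCF/LEF and the TATA box TATAAA. The HNF4 letters were chosen after the windows had been seen. The windows below belong to 3 genes that fell to under 20% of Apc_WT and to Apob, which kept 59.2%, and the matched letters are in capitals. They lie on the plus strand at chr6:71199629-71199928 for Fabp1, chr3:122894822-122895121 for Fabp2, chr9:46240594-46240893 for Apoa4 and chr12:7977427-7977726 for Apob.
Fabp1: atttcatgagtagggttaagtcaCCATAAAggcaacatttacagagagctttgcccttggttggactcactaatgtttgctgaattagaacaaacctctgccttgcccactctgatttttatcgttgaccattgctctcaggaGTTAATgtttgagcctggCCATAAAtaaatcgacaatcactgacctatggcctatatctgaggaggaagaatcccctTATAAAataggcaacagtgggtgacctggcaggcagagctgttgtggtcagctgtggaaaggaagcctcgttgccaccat
Fabp2: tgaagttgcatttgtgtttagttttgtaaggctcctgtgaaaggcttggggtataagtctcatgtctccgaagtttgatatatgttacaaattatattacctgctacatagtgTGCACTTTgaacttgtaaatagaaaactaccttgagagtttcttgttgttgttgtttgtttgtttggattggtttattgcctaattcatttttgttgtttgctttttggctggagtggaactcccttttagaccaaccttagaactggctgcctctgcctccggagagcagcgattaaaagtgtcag
Apoa4: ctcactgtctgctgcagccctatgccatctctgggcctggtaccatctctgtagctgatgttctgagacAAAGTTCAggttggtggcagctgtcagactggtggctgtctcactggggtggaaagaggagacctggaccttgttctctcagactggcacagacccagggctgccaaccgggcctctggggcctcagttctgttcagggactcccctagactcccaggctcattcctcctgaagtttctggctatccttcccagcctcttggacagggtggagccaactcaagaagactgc
Apob: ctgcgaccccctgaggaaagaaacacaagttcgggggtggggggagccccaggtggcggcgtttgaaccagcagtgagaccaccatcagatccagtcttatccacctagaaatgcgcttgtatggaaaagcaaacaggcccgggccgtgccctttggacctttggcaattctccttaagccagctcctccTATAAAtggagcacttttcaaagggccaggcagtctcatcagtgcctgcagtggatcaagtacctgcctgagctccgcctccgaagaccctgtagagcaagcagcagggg
Positions are counted from a start site taken at the same base of every window, negative upstream. For Fabp2 that site is the gene start given above. For Fabp1, Apoa4 and Apob it lies downstream of the gene start given above, so positions from that gene start would differ. Fabp1 held CDX letters, read on the opposite strand, at positions -227 and -89, HNF1 letters at -107 and a TATA box at -30. Fabp2 held HNF4 letters on the opposite strand at -137, and Apoa4 held them at -181. Apob held a TATA box at -60, and the windows of Apoa1 and Mttp held none of these letters. The Mttp window, chr3:138143369-138143668, lies inside the gene, which begins at 138144968 on the minus strand. It therefore does not show which letters lie at that gene start. Of all 32851 promoters in the table, 4.12% held the HNF4 letters, 7.10% the HNF1 letters, 2.75% the CDX letters and 13.6% the TATA letters. The GATA and TCF/LEF letters, found in 11.2% and 3.73% of promoters, were in none of the 6 windows. Because of how the HNF4 letters were chosen, their share over all promoters is no test of these windows. These matches are letters in a window, not binding sites.

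Apoa1, Apoc3 and Apoa4 lie within 14880 bp of each other on chromosome 9, at chr9:46228580-46243459. Of the neighbouring protein-coding genes within 100000 bp, named after their values were seen, none of the 4 measured fell. Gm10680, the antisense gene that overlaps Apoa4, did fall (log2 fold change -2.50, limma adjusted p = 0.00208). Sik3, a kinase gene that ends 4386 bp before Apoa1, averaged 17.6 ± 2.55 FPKM in Apc_KO and 13.3 ± 1.09 FPKM in Apc_WT (SD, n = 4 each) and rose by 0.37 on the log2 scale (limma adjusted p = 0.0209). Zpr1, listed as Zfp259, and Bud13 did not pass, with log2 fold changes of 0.24 and 0.23. Apoa5, a further apolipoprotein gene 25174 bp beyond Apoa4, was at 0, 22.1, 5.32 and 1.08 FPKM in Apc_KO and at 0, 0.304, 0 and 0.212 FPKM in Apc_WT. Its Apc_KO libraries ranged widely, it did not pass (log2 fold change 1.90, limma adjusted p = 0.0728), and the deposited locus spans 35.7% of the annotated gene.

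**Figure D3:**
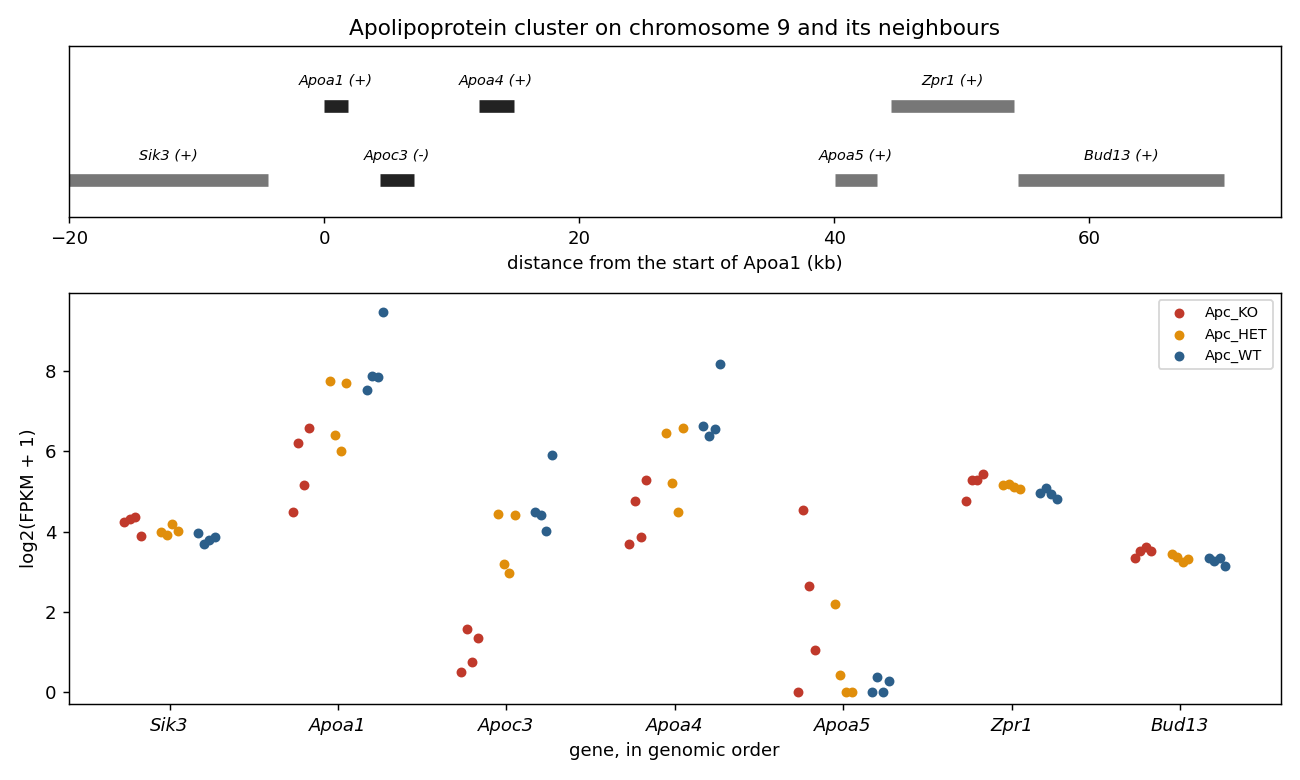
Top, position of the genes in kb from the start of Apoa1, with strands in brackets (Sik3 runs on to the left). Bottom, log2(FPKM + 1) of each gene in every library. Apoa1, Apoc3 and Apoa4 are lower in all Apc_KO libraries than in any Apc_WT library, and Sik3, Zpr1 and Bud13 lie close together in all genotypes.

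In Apc_KO against Apc_HET, 5 of the 10 genes fell, 2 rose and 3 did not pass. Over all genes 18.9% were called lower and 22.8% higher, 41.8% in all. This comparison shares its Apc_KO libraries with the one against Apc_WT. The genes that fell were Apoc3 (log2 fold change -2.72, limma adjusted p = 0.000416), Fabp2 (-2.86, adjusted p = 0.000337), Mttp (-2.50, adjusted p = 6.94e-05), Fabp1 (-2.43, adjusted p = 0.00651) and Dgat1 (-1.999, adjusted p = 1.09e-05). Dgat2 rose by 1.01 (adjusted p = 0.00397) and Scarb1 by 1.98 (adjusted p = 2.35e-06), and these 7 genes were also the ones whose libraries did not overlap. Of all genes, 39.5% did not overlap between these genotypes, 18% lower and 21.4% higher in Apc_KO.

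Apoa1, Apoa4 and Apob did not pass against Apc_HET. Their log2 fold changes were -1.36 (limma adjusted p = 0.0729), -1.29 (adjusted p = 0.0747) and -0.46 (adjusted p = 0.194). The Apoa1 and Apoa4 values of Apc_HET replicates 2 and 3 all lay inside the Apc_KO range, and those of replicates 1 and 4 all lay above it. Apoa1 and Apoa4 passed without Apc_HET replicate 3 (-1.68 for each, adjusted p = 0.0409 for Apoa1 and 0.0241 for Apoa4), without Apc_KO replicate 4, without Apc_WT replicate 4 and with quantile normalization.

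In Apc_HET against Apc_WT, none of the 10 genes passed, as for all genes tested (0% called by limma in either direction). The log2 fold changes of all 10 were below 0, from -0.15 for Scarb1 to -1.25 for Apoa4, with a median of -0.74 against 0.07 over all genes. At an unadjusted p under 0.05, 2 of the 10 were lower, Apoa4 and Dgat1 (limma adjusted p = 0.987 each). Of all genes 4.33% passed that looser threshold, 1.06% lower and 3.27% higher. Over all 23 settings tried, limma called 0 to 4 genes in this comparison. Every gene's Apc_HET libraries overlapped those of Apc_WT, while 6.08% of all genes did not overlap, 0.617% lower and 5.46% higher. The comparison uses the same Apc_WT libraries as that of Apc_KO, so their deviations enter both. Without Apc_WT replicate 4 the fold changes were smaller in size, from -0.06 for Scarb1 to -0.84 for Apoa4.

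The 95% confidence intervals of this comparison show what 4 libraries per genotype leave undecided. They ran from -2.40 to 0.23 for Fabp1 and from -2.43 to -0.08 for Apoa4. The interval was narrower for Dgat1, from -0.92 to -0.01, and for Scarb1, from -0.52 to 0.23. A fall of Fabp1 in Apc_HET as large as that in Apc_KO (-3.51) was outside its interval, and no difference at all was inside it.

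Some libraries of a genotype were high or low for most of the 10 genes. In Apc_HET, replicates 1 and 4 were both above replicates 2 and 3 for 10 of the 10 genes. Apc_KO replicate 1 was the lowest Apc_KO library for 8 of the 10. The highest Apc_KO library was replicate 2 for 5 genes, replicate 4 for 4 and replicate 3 for 1, and replicate 4 was the lowest for Apob. Apc_WT replicate 4 exceeded the median of the other Apc_WT libraries 3.11 times for Apoa4, 3.07 times for Apoa1 and 2.84 times for Fabp1, and 1.43 times for Apob. The summed level of 12 brush border markers was likewise highest in Apc_HET replicates 1 and 4 and in Apc_WT replicate 4, but in Apc_KO it was lowest in replicate 4 (362 FPKM), not replicate 1 (553 FPKM). Its part in the result was not tested. Without Apc_WT replicate 4, the fold changes of Apc_KO against Apc_WT were -3.13 for Fabp1, -3.32 for Fabp2, -2.15 for Apoa1, -2.13 for Apoa4, -3.27 for Apoc3, -2.96 for Mttp, -2.31 for Dgat1 and 1.92 for Scarb1, all still passing in limma.

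Summed over the 10 genes, the pathway took 0.0411% to 0.0822% of total FPKM in Apc_KO, 0.107% to 0.360% in Apc_HET and 0.263% to 0.775% in Apc_WT. The order of the genes by level differed between genotypes. In Apc_WT, Fabp1 (625 ± 396 FPKM), Apoa1 (340.2 ± 248 FPKM) and Fabp2 (334 ± 201 FPKM) led, with overlapping ranges (SD, n = 4 each). Neighbours in the Apc_WT order were separate only between Dgat1 and Apob and between Dgat2 and Scarb1, which was lowest at 4.49 ± 1.04 FPKM. In Apc_KO, Apoa1 (56.1 ± 33.8 FPKM) and Fabp1 (54.9 ± 29.7 FPKM) were followed by Dgat2 (34.2 ± 4.56 FPKM), and the only neighbours with separate ranges were Dgat1 (15.8 ± 3.55 FPKM) and Apoc3 (1.15 ± 0.737 FPKM). FPKM is per transcript length, so these levels can be set beside each other, but only roughly. Mttp was summed over 2 rows, and Dgat1, Mttp and Apoa4 share loci with other genes.

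Ratios between the genes, chosen after their values were seen and so given without a test, showed which genes kept step. The ratio of Dgat2 to Dgat1 was 1.84 to 3.06 in Apc_KO libraries, 0.217 to 0.287 in Apc_HET and 0.203 to 0.285 in Apc_WT. Apob to Mttp was 0.849 to 1.71 in Apc_KO, 0.233 to 0.405 in Apc_HET and 0.188 to 0.278 in Apc_WT. Apoa1 to Apoc3 was 36.9 to 61.5 in Apc_KO, 9.34 to 10.3 in Apc_HET and 8.57 to 15.3 in Apc_WT. These 3 ratios were higher in every Apc_KO library than in any other library. Apoa1 to Apoa4 stayed within one range, at 1.801 to 2.78 in Apc_KO, 2.18 to 2.93 in Apc_HET and 1.88 to 2.82 in Apc_WT.

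**Figure D4:**
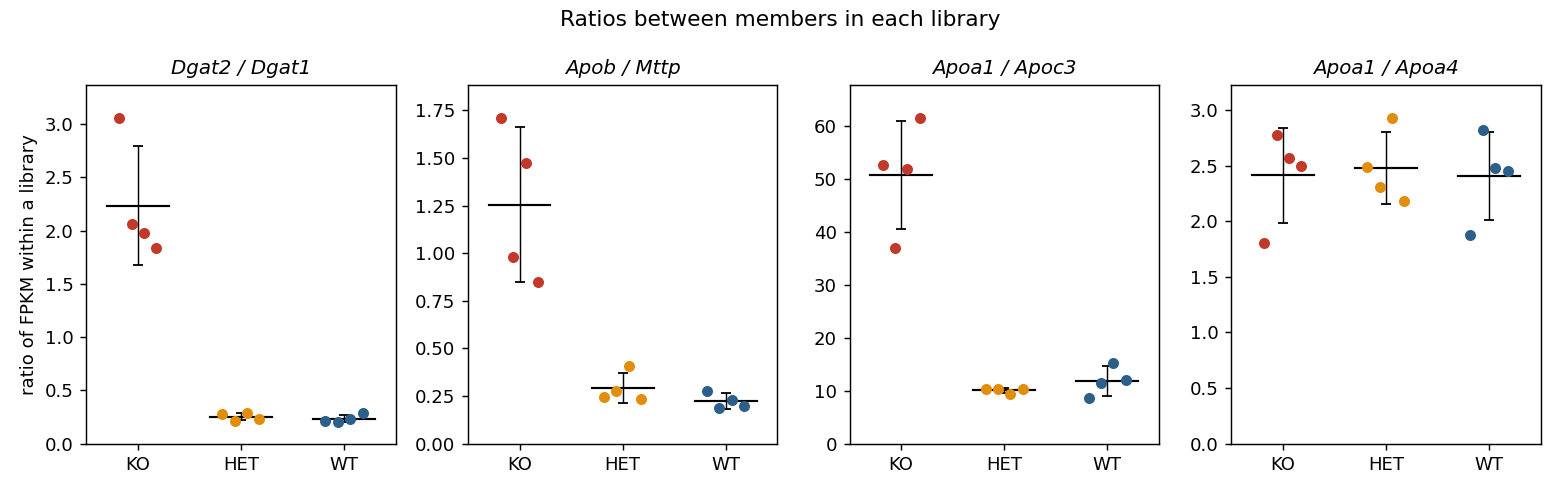
Ratio of the FPKM of one gene to another within a library (vertical axes, from 0) in Apc_KO, Apc_HET and Apc_WT. Points are libraries, horizontal lines are means and vertical bars are 1 SD. Dgat2 to Dgat1, Apob to Mttp and Apoa1 to Apoc3 are higher in all Apc_KO libraries, and Apoa1 to Apoa4 overlaps in the 3 genotypes.

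The rest of the pathway was described by 6 lists that hold 86 further genes, of which 79 were tested. In Apc_KO against Apc_WT, 34 of the 79 fell (43%, against 17.7% of all genes), 14 rose (17.7%, against 27.9% of all genes) and 31 did not pass, with a median log2 fold change of -0.23. In Apc_HET against Apc_WT, limma called 0 of them. Transcription factors, chylomicron assembly and uptake held 13, 8 and 6 of the falls.

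Of 12 genes for uptake and efflux at the cell surface, 6 fell (50%, against 17.7% of all genes) and 2 rose (16.7%, against 27.9%). Npc1l1, the sterol importer, averaged 2.21 ± 0.882 FPKM in Apc_KO and 38.4 ± 8.66 FPKM in Apc_WT (log2 fold change -3.64, limma adjusted p = 1.04e-06). Slc27a2, a fatty acid transport protein, averaged 12.03 ± 2.92 FPKM in Apc_KO and 67.1 ± 6.92 FPKM in Apc_WT (-2.41, adjusted p = 3.23e-07). The risers were Abca1, which exports cholesterol to apolipoprotein A-I, at 6.21 ± 3.14 FPKM in Apc_KO and 0.789 ± 0.428 FPKM in Apc_WT (1.95, adjusted p = 5.84e-05), and Prom1 (0.55, adjusted p = 0.00625).

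Of 9 genes for fatty acid binding and activation, 2 fell (22.2%), 3 rose (33.3%) and 4 did not pass, shares near those of all genes. The acyl-CoA synthetases divided: Acsl5 (log2 fold change -1.51) and Acsl1 (-0.97) fell, while Acsl4, which prefers polyunsaturated fatty acids, averaged 16.2 ± 4.38 FPKM in Apc_KO and 1.84 ± 0.34 FPKM in Apc_WT (2.57, limma adjusted p = 3.01e-07). Fabp5, the epidermal binding protein, averaged 23.9 ± 12.3 FPKM in Apc_KO and 5.72 ± 2.77 FPKM in Apc_WT (1.81, adjusted p = 0.00107). The other riser, Acsl3, was named after its values were seen (0.84, adjusted p = 0.0202). The level of Fabp5 in Apc_KO was near that of Fabp2 (25.5 ± 13.6 FPKM), with overlapping ranges.

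Of 10 tested genes for glyceride and sterol esterification, 3 fell, 1 rose and 6 did not pass. Falls made up 30%, against 17.7% of all genes, and rises 10%, against 27.9% of all genes. Gpat3, listed as Agpat9, which starts glycerolipid synthesis, averaged 3.18 ± 0.921 FPKM in Apc_KO and 14.5 ± 3.68 FPKM in Apc_WT (log2 fold change -1.89, limma adjusted p = 1.97e-05). Soat2, which esterifies cholesterol for chylomicrons, fell by 1.52 on the log2 scale (adjusted p = 0.000994). Named after their values were seen, Lpin3 fell (-0.49, adjusted p = 0.00843) and Lpin1, of the same phosphatase family, rose (0.60, adjusted p = 0.00121). Mogat2, the monoacylglycerol acyltransferase that precedes the Dgat step, was likewise chosen. It averaged 46.9 ± 13.5 FPKM in Apc_KO and 47.2 ± 22.8 FPKM in Apc_WT and did not pass (0.05, 95% confidence interval -0.86 to 0.95, adjusted p = 0.941).

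Of 18 genes for chylomicron assembly, exit from the endoplasmic reticulum and lipid droplets, 8 fell, 2 rose and 8 did not pass. Falls made up 44.4%, against 17.7% of all genes, and rises 11.1%, against 27.9% of all genes. Tm6sf2, a membrane protein needed for lipidation of secreted particles, averaged 5.89 ± 2.19 FPKM in Apc_KO and 64.5 ± 16.1 FPKM in Apc_WT (log2 fold change -3.28, limma adjusted p = 1.71e-06). Prap1, which binds triglyceride and aids Mttp, averaged 24.9 ± 12.5 FPKM in Apc_KO and 156 ± 50.7 FPKM in Apc_WT (-2.71, adjusted p = 5.52e-05). Abhd5 (0.53, adjusted p = 0.00465), an activator of lipid droplet lipase, and Sar1a (0.36, adjusted p = 0.00359), a GTPase of coated vesicles, rose. With both size factors and quantile normalization these 4 calls held.

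Of 14 other apolipoprotein genes 8 were tested, of which 2 fell, 1 rose and 5 did not pass. Falls made up 25%, near the 17.7% of all genes, and rises 12.5%, against 27.9% of all genes. Apoo, a mitochondrial member, fell by 1.08 on the log2 scale (limma adjusted p = 0.0173), and the call ended without Apc_WT replicate 4 (-0.95, adjusted p = 0.0528). Named after their values were seen, Apol7a fell (-0.87, adjusted p = 0.00221) and Apod rose (1.54, adjusted p = 8.78e-05). Apod was low, at 1.21 to 3.39 FPKM in Apc_KO and 0 to 0.0825 FPKM in Apc_WT libraries. Its fold change therefore depends on the 1 added to each value. Apoc2 with Apoc4, and Apoe with Tomm40, stand in the tables as joined loci whose genes cannot be separated. Neither joined locus passed (log2 fold changes -1.13 and 0.01).

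Of 22 transcription factors tied to lipid absorption, 13 fell, 5 rose and 4 did not pass. Falls made up 59.1%, against 17.7% of all genes, and rises 22.7%, against 27.9% of all genes. Nr5a2 averaged 1.35 ± 0.547 FPKM in Apc_KO and 14.8 ± 1.85 FPKM in Apc_WT (log2 fold change -2.77, limma adjusted p = 1.27e-07). Creb3l3, an endoplasmic reticulum factor that activates apolipoprotein genes, fell by 2.52 (adjusted p = 2.65e-05), and its deposited locus spans 58.6% of the gene. Prdm1, a repressor of the mature enterocyte program, averaged 7.38 ± 2.73 FPKM in Apc_KO and 0.891 ± 0.438 FPKM in Apc_WT (2.13, adjusted p = 1.26e-05), with 23.6% of the gene in its locus. Klf4 also rose (0.85, adjusted p = 0.00302).

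The nuclear receptors whose binding letters were searched above were named after their values were seen. Hnf4a averaged 94.1 ± 28.6 FPKM in Apc_KO and 278 ± 23.8 FPKM in Apc_WT (log2 fold change -1.60, limma adjusted p = 2.92e-05). Hnf4g averaged 9.04 ± 2.44 FPKM in Apc_KO and 51.6 ± 7.41 FPKM in Apc_WT (-2.42, adjusted p = 5.82e-06). In Apc_HET they averaged 293 ± 17.9 FPKM and 46.2 ± 15.6 FPKM.

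**Figure D5:**
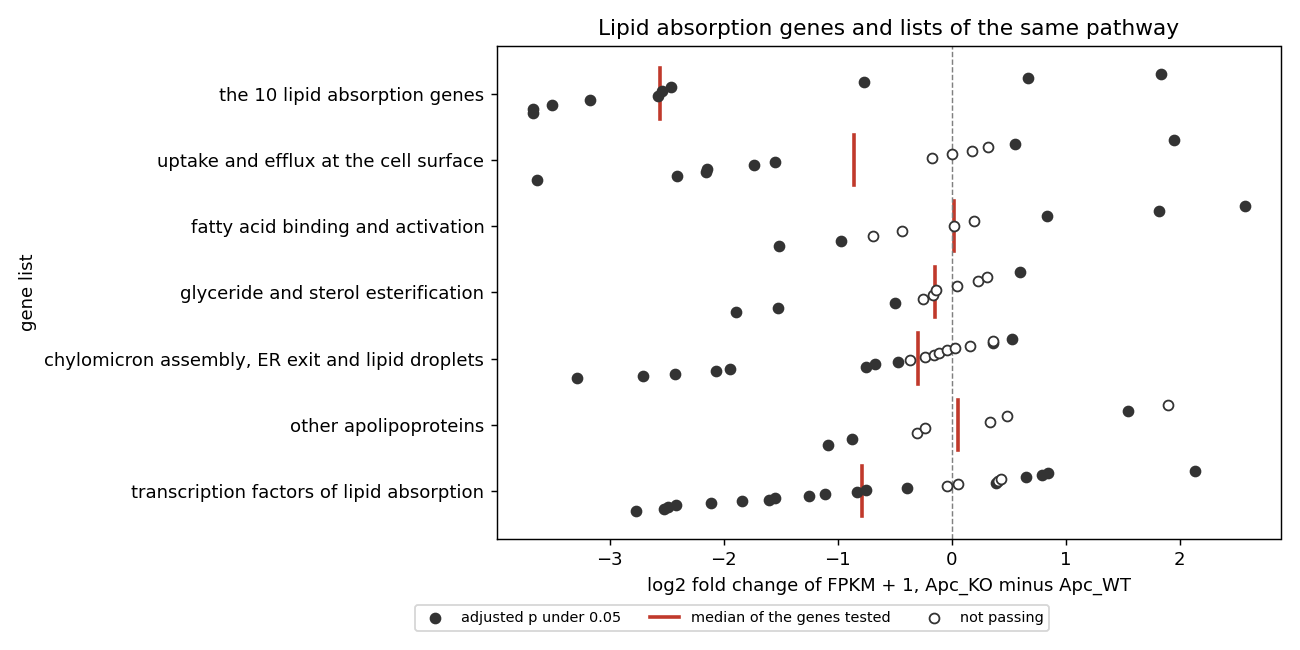
Log2 fold change of FPKM + 1, Apc_KO minus Apc_WT (horizontal axis), of the 10 genes and of 6 lists of the same pathway. Filled points passed an adjusted p under 0.05, open points did not, and the red bar is the median of the genes tested. The median is -2.56 for the 10 genes and runs from -0.86 to 0.05 over the lists.

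Against Apc_HET, 32 of the 79 pathway genes fell (40.5%, against 18.9% of all genes) and 16 rose (20.3%, against 22.8% of all genes). By the same rule, the genes named for this comparison were Abca1 (log2 fold change 2.07, limma adjusted p = 4.04e-05) and Npc1l1 (-3.04, adjusted p = 4.78e-06), Acsl4 (2.27, adjusted p = 9.11e-07) and Acsl1 (-1.09, adjusted p = 0.000265). Gpat3, listed as Agpat9 (-1.91, adjusted p = 2.07e-05), Tm6sf2 (-2.56, adjusted p = 1.41e-05), Nr5a2 (-3.02, adjusted p = 7.31e-08) and Apoo (-0.97, adjusted p = 0.0319) fell. The call of Apoo held in 16 of 21 alternatives, with adjusted p up to 0.0928, and was lost without Apc_HET replicate 2 or 4, without Apc_KO replicate 1 or 3 and with Apc_WT left out of the fit. Lipa, the lysosomal acid lipase, averaged 6.58 ± 0.953 FPKM in Apc_KO and 2.96 ± 0.69 FPKM in Apc_HET and rose (0.94, adjusted p = 0.00247), as did Prdm1 (2.03, adjusted p = 2.04e-05).

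Lists of cell type markers moved in different ways in Apc_KO against Apc_WT, where 17.7% of all genes were called lower and 27.9% higher. All 12 enterocyte brush border markers fell in Apc_KO against Apc_WT, with a median log2 fold change of -2.82. Their summed level was 362 to 701 FPKM in Apc_KO, 1649 to 2672 FPKM in Apc_HET and 2285 to 3569 FPKM in Apc_WT, and Mgam and Anpep had the highest mean over the 12 libraries. Of 11 tested markers of goblet, Paneth, enteroendocrine and tuft cells, 9 fell (81.8%) and 1, Mmp7, rose (9.09%). Of 8 stem cell markers 4 rose (50%) and 1, Olfm4, fell (12.5%). Olfm4 averaged 391 ± 343 FPKM in Apc_KO and 5461 ± 340.5 FPKM in Apc_WT, and its deposited locus spans 59.2% of the gene. The part of these markers' cells in the result was not tested.

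Of 10 leukocyte markers 6 were measured. They summed to 1.21 to 4.67 FPKM in Apc_KO, 5.26 to 10.3 FPKM in Apc_HET and 6.05 to 7.70 FPKM in Apc_WT. Cd79a was under 1 FPKM in every library. Itgam was at 0.197 to 0.605 FPKM in Apc_KO and 2.70 to 3.73 FPKM in Apc_WT libraries, while the Cd3g libraries of these genotypes overlapped. Against Apc_WT, 1 of 3 tested leukocyte markers fell (33.3%, against 17.7% of all genes) and 2 did not pass. Of 8 stroma and endothelium markers 3 were measured and summed to 22.2 to 54.6 FPKM in Apc_KO, 0.255 to 1.17 FPKM in Apc_HET and 0.0158 to 2.17 FPKM in Apc_WT. Cdh5 and Pdgfra made up most of the Apc_KO sum. The deposited loci span 31.2% of Pdgfra and 9.16% of Col1a1, the other marker measured. Of 6 hepatocyte markers 3 were measured. Alb, the defining one, was at 0.234 to 1.29 FPKM over all libraries while Fabp1 and Apoa1, also liver genes, were far higher. The other measured ones were expressed, Ttr at 3.02 to 21.2 FPKM and Apoa2 at 2.05 to 12.7 FPKM over all libraries. Of 9 tested markers of proximal and distal intestine 4 fell (44.4%, against 17.7% of all genes) and 2 rose (22.2%, against 27.9%). Gata4 (log2 fold change -0.39) and Adh6a (-3.25) fell. The other called markers were named after their values were seen, and they went both ways at both ends of the intestine. Of the proximal ones, Pdx1 fell (-1.43) and Cybrd1 rose (1.40). Of the ileal ones, Slc51b fell (-2.15) and Slc10a2, a bile acid transporter, rose (3.16, limma adjusted p = 7.21e-05). The part of stroma, leukocytes or intestinal segment in the result was not tested.

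Cox7a1, Ggt1, Dpep1 and Clec2h were among the 5 genes whose profile over the 12 libraries was most like the median profile of the 10, out of 8671 genes ranked. Likeness was the root mean square difference of centred log2(FPKM + 1), which was 0.128 for Cox7a1, 0.197 for Ggt1 and 0.255 for Clec2h. Cox7a1, a subunit of the respiratory chain, averaged 4.84 ± 2.24 FPKM in Apc_KO, 21.8 ± 10.3 FPKM in Apc_HET and 40.8 ± 25.6 FPKM in Apc_WT. Ggt1 and Dpep1 are enzymes of the cell surface that act on glutathione and its products. Of the 10 genes themselves, Apoa1 (0.320) and Apoa4 (0.333) lay nearest to their own median profile, and Apob (0.969), Dgat2 (1.52) and Scarb1 (2.04) farthest.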

How the data were processed

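RNA-seq of 12 libraries was analysed, 4 for each of 3 genotypes, grouped by the labels. The deposited values are FPKM per locus, per the file headers. The tools named are TopHat with Bowtie, then Cufflinks with Cuffdiff, and the build is GRCm38, also called mm10, per the submitters' processing notes; versions, annotation and strand setting are not given in the sources used here. Depth is unknown, so no counting interval is given.

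Of 14499 symbols, 295 with differing loci between genotypes and 122 with a failed estimate were left out. Loci of a symbol were summed (2693 symbols). Gene positions are from GENCODE and promoters from RefSeq, both on GRCm38. Genes with at least 1 FPKM in at least 4 libraries were tested with limma 3.58.1 (R 4.3.3) on log2(FPKM + 1), in 1 fit of 12 libraries with a trended eBayes, two-sided, Benjamini-Hochberg adjusted over 12962 genes per comparison and called under 0.05. The added 1 shrinks fold changes of genes at low FPKM. The design text describes separate mice per genotype. The script was tested on simulated data.

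Deposited FPKM was not rescaled in the fit reported.

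The 10 genes and the lists were chosen with earlier results of these data known. All 10 are named, and from each pathway list up to 2 genes in each direction with the largest fold change among called genes whose higher group averaged at least 5 FPKM (1 in each direction for other comparisons). From marker lists the 2 of highest mean and the defining genes near 0 are named. Likeness used genes averaging at least 5 FPKM. One gene that the rule names is not reported here. Others are marked as chosen after their values were seen.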

Additional observations from a re-analysis of the deposited data

Results flagged for a closer look

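Of 90 groups of 4 libraries looked at (30 genes in 3 genotypes), 7 held a library far from the others, by Dixon's test at the 95% level. Chance alone flags about 1 in 20 groups. All 7 were Apc_WT replicate 4, and 5 belonged to the lipid absorption genes.

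Apc_WT replicate 4 had 1218 FPKM of Fabp1 where the next Apc_WT library had 451 FPKM. Its Apoa1 was at 710.4 FPKM, next to 234 FPKM, and its Apoa4 at 290.1 FPKM, next to 98.7 FPKM. Apoc3 was at 59.4 FPKM, next to 21.6 FPKM, and Dgat2 at 35.3 FPKM, next to 18.1 FPKM. Of the pathway genes, Fabp5 was at 9.87 FPKM, next to 4.51 FPKM, and Lipa at 7.88 FPKM, next to 4.33 FPKM.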

How the results depend on the processing

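For each of the 10 genes and each comparison 21 alternatives were run: size factors, quantile normalization, a pseudocount of 0.1, 2 other filters, the highest locus, only the genotypes compared, library weights, the replicate block and 12 fits without 1 library. No fold change of the 10 genes changed sign in any. In Apc_KO against Apc_WT, 8 of the 10 genes kept their side of the threshold in all 21, and Apob and Dgat2 in 13 each. The number of genes that rose was 1 with size factors and 1 with library weights, in place of 2, because Dgat2 no longer passed. Leaving out 1 library each gave 1 to 2 genes that rose and 7 to 8 that fell. Against Apc_HET it gave 5 to 7 that fell and 2 that rose, and Apc_HET against Apc_WT gave 0 in both directions. The median log2 fold change was -2.87 to -2.23, and the pathway lists gave 12 to 15 rises and 31 to 35 falls.

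Equal replicate numbers did not pair libraries: their deviations correlated at -0.195 to 0.1802, and 3 of 12 best matches were to the same number. With the replicate block, 7 of the 10 genes fell and 2 rose against Apc_WT, since Apob did not pass (adjusted p = 0.0655), and 7 fell and 2 rose against Apc_HET, since Apoa1 (adjusted p = 0.0312) and Apoa4 (adjusted p = 0.0175) passed. Over all genes, Apc_HET against Apc_WT gave 0 calls in most settings and at most 4, without Apc_HET replicate 4. Depth is unknown, so low values such as Apoc3 in Apc_KO carry no counting error here.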
